A study of Mus musculus with 50 samples.

Results

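The arrays compared here are the 4 spleens taken 72 h and the 4 spleens taken 24 h after an injection of CpG oligodeoxynucleotides (CpG ODN) into BALB/c mice, the latest times of the series. They were chosen by their titles and are 8 of the 50 arrays in the series. The mice were female wild-type BALB/c animals whose age the labels do not give, and they had received intraperitoneally 400 µg of an equimolar mixture of the CpG ODN 1555 and 1466. The 6 untreated BALB/c spleens, the 4 spleens taken 9 h after the same mixture and the 4 spleens taken 3 h after 400 µg of the control ODN 1612 and 1471 are used beside them. The BALB/c spleens taken 0.5 h, 1 h and 3 h after the CpG mixture also entered the fit. Its 34 arrays share 1 estimate of the spread per gene. No control ODN array at 24 h or 72 h was analysed here. RNA of each whole spleen was labelled with Cy5 and hybridised beside a common mouse reference RNA labelled with Cy3 on a spotted oligonucleotide array. The series text gives 4 independent experiments per time point.

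Unmethylated CpG DNA is recognised inside cells by Toll-like receptor 9, which B cells and plasmacytoid dendritic cells carry at high levels. The receptor drives type I interferon, inflammatory cytokines and, through interleukin 12 and natural killer cells, interferon gamma. The mouse spleen also makes red blood cells, unlike most adult human spleens, and its red pulp expands under inflammation, blood loss or anaemia.

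The ODN are shown because the active and the control mixtures differ in few bases, and capitals mark each CG. The CpG mixture has 3 CG dinucleotides over its 2 oligonucleotides, and the control mixture keeps 1 of them.
ODN 1555: gctagaCGttagCGt
ODN 1466: tcaaCGttga
Control ODN 1612: gctagatgttagCGt
Control ODN 1471: tcaagcttga

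The unit throughout is the centred log2 ratio, which is the log2 of spleen over reference signal minus the array's median, so that a difference of 1 between groups is a 2-fold difference. A gene was called where its adjusted p, from limma with Benjamini-Hochberg adjustment over all genes tested, was under 0.05. Of 15264 genes tested, 508 (3.33%) were called between 72 h and 24 h. At 72 h 345 of them (2.26% of the genes tested) were higher and 163 (1.07%) lower, and the median difference over all genes was -0.04. The 8 arrays held 29554 to 30538 values each. Markers of the labelled tissue stood above the reference on all 8, with list means of 2.44 to 3.43 for B cells and 3.24 to 4.04 for red pulp macrophages. Within-group correlations ran from 0.81 to 0.91 at 24 h and from 0.871 to 0.974 at 72 h, where the highest belonged to replicates 1 and 2. Their values were not identical, and the labels do not say whether 1 RNA was hybridised again. Averaged to 1 array, which leaves 3 at 72 h, they gave 242 calls, and 32 of the 84 called genes named here lost their call. Leaving out one array moved the count of calls by over 1.5 times in 5 of 8 cases: 265 without 24 h replicate 1, 201 without 24 h replicate 3, and 315, 206 and 289 without 72 h replicates 1, 2 and 3. The 8 arrays fitted alone gave 260 calls and a fit with array weights 1866. The labels give each array an mAdb number and do not say whether it follows the order of processing. A gap of more than 10 between numbers was taken to start a new stretch. The 72 h arrays then lie in 1 stretch with the control ODN arrays and the 24 h arrays in 2 others. Time and any batch that follows these stretches therefore cannot be told apart. The difference from the control ODN arrays lies within 1 stretch of numbers but mixes treatment with time. It is given beside the results of some lists.

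**Figure D1:**
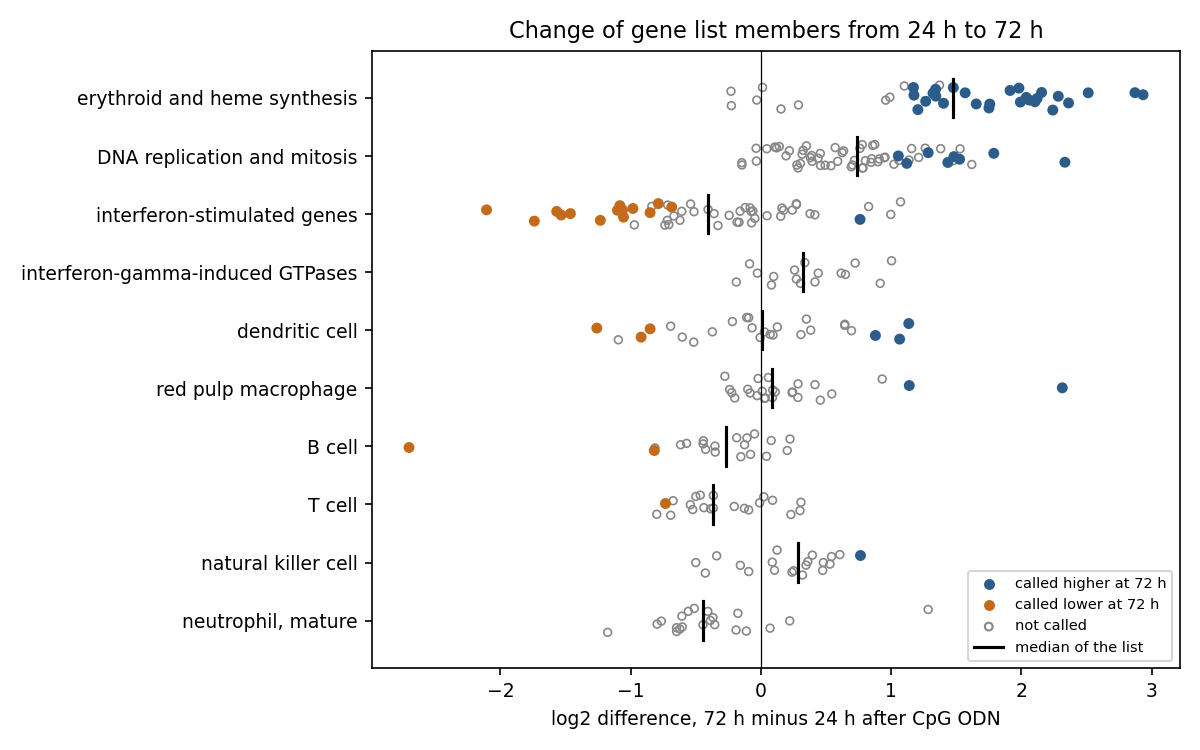
Each point is 1 gene of the list named at the left, placed by its log2 difference between 72 h and 24 h after CpG ODN, with filled points for called genes and a black bar for the list's median. The erythroid list lies furthest to the right, with a median of 1.48 and 27 called members, and the interferon-stimulated list holds 14 called falls.

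Genes of red blood cell formation had more called rises than any other list examined. Of 46 listed erythroid and heme synthesis genes 37 were tested, 27 rose from 24 h to 72 h, against 2.26% of all genes called higher, and its 3 negative differences did not pass the test. The list's median difference was 1.48, which is above 2-fold, and all arrays at 72 h (list means 3.85, 4.03, 3.97 and 3.15) lay above all arrays at 24 h (2.13, 2.68, 2.00 and 2.31). Untreated spleens, at 2.82 to 3.49, lay above all 24 h arrays and overlapped with the fourth 72 h array. List means also spread widely within the 0.5 h group, at 2.44, 1.89, 3.16 and 3.33, and replicate 2 there lay below all 24 h arrays. The median member was -0.79 from untreated at 24 h, with 9 called lower (1.62% of all genes were), and 0.77 above untreated at 72 h, with 7 called higher (6.43% of all genes). Against the control ODN arrays at 3 h the median member was 0.43 higher at 72 h, with 2 called higher and 2 lower (4.99% and 8.26% of all genes). In a whole organ, fewer cells of a type and less RNA per cell cannot be told apart.

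Transcription factors of the lineage were among the called rises. Klf1, the erythroid Krüppel-like factor, read 3.89, 5.02, 3.67 and 4.11 at 24 h and 6.69, 6.86, 6.76 and 4.86 at 72 h, in the order of replicates 1 to 4 that is kept below. Only the fourth 72 h array fell within the 24 h range, and the difference was 2.12 ± 0.52 (SE, adjusted p = 0.0179). Gata1, the central erythroid and megakaryocytic factor, went from 1.64, 1.80, 2.10 and 1.84 to 3.08, 3.28, 3.46 and 2.27 with no overlap (1.18 ± 0.22, adjusted p = 0.00275), and it stood 0.92 above untreated at 72 h (adjusted p = 0.0041). Tal1, which works in a complex with Gata1, rose by 2.06 ± 0.44, Nfe2, a regulator of globin genes and platelets, by 1.75 ± 0.36 and Lmo2, the bridging protein of that complex, by 0.98 ± 0.20, each without overlap of the times. Tal1 and Lmo2 were also the 2 called of 14 early blood progenitor genes (2.26% of all genes were called higher). Of those 14 differences 7 were positive and 7 negative, with a median of -0.01. Epor, the erythropoietin receptor, read 3.02, 2.93, 2.58 and 2.48 at 24 h and 4.45, 4.89, 4.39 and 2.65 at 72 h. Its rise was 1.34 ± 0.39 (adjusted p = 0.0451), with 3 of the 4 late arrays above all early ones, and its other probe gave 0.13. Leaving out 1 array at a time ended the call of Klf1 for 5 of the 8 arrays (adjusted p up to 0.0776) and that of Epor for 7 (up to 0.203), while Gata1, Tal1, Nfe2 and Lmo2 stayed called each time.

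Genes of iron uptake and of the heme pathway rose as well. Tfrc, the transferrin receptor through which erythroblasts take up iron, read 0.86, 2.08, 0.51 and 0.34 at 24 h and 3.20, 3.66, 3.78 and 2.61 at 72 h, a 5.14-fold rise (2.36 ± 0.47, adjusted p = 0.0036). At 24 h it had been 1.34 below untreated (adjusted p = 0.045). Slc25a37, the mitochondrial iron importer mitoferrin, had likewise been 1.72 below untreated at 24 h (adjusted p = 0.0011) and rose by 2.10 ± 0.38. Of the heme enzymes, Alad, Uros, Urod, Cpox, Ppox and Fech all rose, by 1.34 (Cpox) to 2.28 (Uros), with a second Ppox probe at 0.48. Urod, which turns uroporphyrinogen into coproporphyrinogen, went from 0.53, 1.61, 0.29 and 0.74 to 2.59, 3.02, 3.39 and 2.33 and showed no overlap (adjusted p = 0.00209). Fech, which inserts iron into protoporphyrin, rose by 1.98 ± 0.45 (adjusted p = 0.00976). The exception among the pathway's tested enzymes was Alas2, the erythroid enzyme of the first step, at 5.14, 4.96, 4.25 and 4.01 at 24 h and 4.68, 5.35, 4.34 and 3.88 at 72 h (-0.03 ± 0.42, adjusted p = 0.984; 0.38 with arrays scaled to the same spread). Alas2 at 72 h was 1.27 below the control ODN arrays (adjusted p = 0.04). Blvrb, which reduces biliverdin and is abundant in red cells, rose by 1.43 ± 0.34. With 1 array left out, Alad and Cpox lost their call for 6 arrays each and Blvrb for 3 (adjusted p up to 0.118), and the other called genes of this paragraph for none.

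Membrane and blood group genes were among the called rises too. Slc4a1, the anion exchanger band 3, had been 1.61 below untreated at 24 h (adjusted p = 0.011) and then rose by 2.15 ± 0.45 on the probe that stands for it, from 4.30, 4.72, 2.76 and 4.31 to 6.15, 6.83, 6.16 and 5.56, while its other probe gave 0.42. Kel, the Kell blood group protease, rose 5.71-fold, from 1.33, 1.43, 1.32 and 1.79 to 4.02, 4.15, 4.93 and 2.82 (adjusted p = 0.00152), and was 1.37 above untreated at 72 h (adjusted p = 0.03). Rhd of the Rhesus complex rose by 2.24 ± 0.51, the spectrin gene Sptb by 1.76 ± 0.34 (another probe at -0.41), the ankyrin gene Ank1 by 1.21 ± 0.34 (its other probes at 0.04, 2.25 and 2.49) and Icam4, an adhesion protein of erythroblasts, by 1.17 ± 0.30. Fn3k, the kinase that removes sugars from proteins, had the largest rise of the list. It read 0.34, 1.21, 0.25 and 0.45 at 24 h and 4.01, 3.98, 3.92 and 2.07 at 72 h, a 7.64-fold difference (2.93 ± 0.46, adjusted p = 0.000647), and the fourth late array stood apart at the low end. Trim10, a RING finger protein of maturing erythroid cells, rose 7.32-fold (adjusted p = 0.00898). Hemgn, a nuclear protein of blood progenitors, rose by 2.29 ± 0.41 on the probe that stands for it, while its other probe gave 0.16. Single arrays ended the call of Ank1 in 6 cases, Icam4 in 5, Rhd in 2 and Trim10 in 1 (adjusted p up to 0.15), and those of Slc4a1, Kel, Sptb, Fn3k and Hemgn in none.

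The globin genes were not called. Hba-a1 read 4.36, 3.48, 4.45 and 4.21 at 24 h and 3.96, 4.38, 4.14 and 4.07 at 72 h, and Hbb-b1 5.99, 6.70, 7.11 and 6.98 against 6.63, 6.64, 5.65 and 6.95. Their differences of 0.01 ± 0.32 and -0.23 ± 0.39 did not pass the test (Hbb-b1 gave 0.46 with arrays scaled to the same spread), and the untreated means were 4.07 and 6.83. The 10 members not called also held Car2, a carbonic anhydrase, at 0.29 on the probe that stands for it and 2.20 on its other probe, Bpgm at 0.15 and Epb42 at 0.96. The number of called erythroid rises fell to 16 without 72 h replicate 3.

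**Figure D2:**
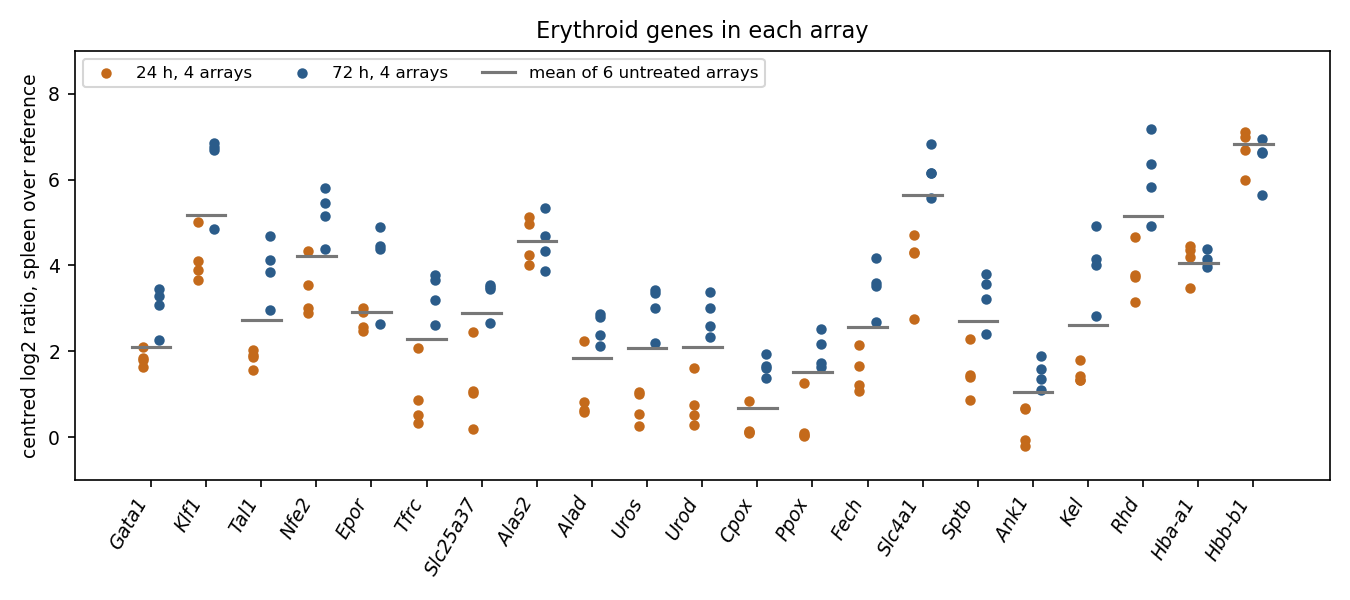
Centred log2 ratios of 21 erythroid genes on the 4 arrays at 24 h and the 4 at 72 h, with a line for the mean of the 6 untreated arrays. In 15 of the 21 genes all 72 h points lie above all 24 h points, while Klf1, Epor, Alad, Alas2, Hba-a1 and Hbb-b1 overlap.

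Since GATA factors bind AGATAA, the promoter windows of the list, 250 bases before to 50 after each RefSeq start (GRCm38.p6), were searched for AGATAA or its reverse complement TTATCT, a motif picked after the values were seen. Among 26 list genes with a window 9 held it, or 9 of 30 windows (30%), against 11.2% of all 32851 windows. It also stood in 3 of 11 windows (27.3%) of the interferon-gamma-induced GTPases, a list without a call. A Krüppel-like factor motif, CCNCNCCC with N for any base, stood in 21 of the 30 windows (70%), against 49.5% of all windows. Its share was 68.1% in windows of all genes called higher and 64.5% in those of genes called lower. Below are 4 of the called genes with an AGATAA or TTATCT match, in capitals, upstream of the start.
Kel, chr6:41704364-41704393, minus strand: cctgagaaactaAGATAAaagaggaggtga
Rhd, chr4:134864481-134864510, plus strand: cccggcagcctgAGATAAgacctttggcgg
Epor, chr9:21963613-21963642, minus strand: ggtggctgtagcTTATCTgtccccagcctg
Icam4, chr9:21029377-21029406, plus strand: cagggtgccttcTTATCTcctgcggccagc
The matches begin 56, 43, 54 and 43 bases before the start. The letters alone do not show a bound site.

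Genes of DNA replication and mitosis were also higher at 72 h. Of 62 members tested 58 had a positive difference, 27 had all 72 h arrays above all 24 h arrays (3.49% of all genes with 3 values at each time did), and 8 passed the test (2.26% of all genes tested). The list's median difference was 0.74. Its means were -0.38, 0.06, -0.33 and -0.45 at 24 h, which overlapped with untreated spleens at -0.485 to -0.001. At 72 h they were 0.33, 0.56, 0.81 and 0.20, above the untreated spleens. Within the 0.5 h group the means spread widely, at -1.16, -1.55, -0.01 and -0.13. The median member was 0.03 from untreated at 24 h, 0.76 above untreated at 72 h (12 called higher, 6.43% of all genes were) and 0.65 above the control ODN arrays (10 called higher, 4.99% of all genes).

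Mki67, the antigen of cycling cells, read -0.61, -0.49, -0.41 and 0.59 at 24 h and 2.15, 2.22, 2.30 and 1.74 at 72 h, a 5.04-fold difference (2.33 ± 0.65, adjusted p = 0.037). Cenpa, the centromeric histone, went from -1.28, -0.43, -1.41 and -1.36 to -0.04, 0.10, 0.53 and 0.07 (1.28 ± 0.30, adjusted p = 0.012). The mitotic genes Birc5 (1.44 ± 0.41), Prc1 (1.48 ± 0.41), Nusap1 (1.52 ± 0.43) and Kif22 (1.12 ± 0.31), which act on the spindle and in cell division, rose with no overlap of the times. Smc2, a condensin subunit, rose by 1.05 ± 0.31 and was 1.17 above untreated at 72 h (adjusted p = 0.0073). Cdkn2c, an inhibitor of cyclin-dependent kinases that erythroid cells use on leaving the cycle, rose by 1.79 ± 0.43, with one of its 3 probes at -0.47. Mcm5, a subunit of the replicative helicase, read 0.25, 1.20, 0.85 and 0.48 at 24 h and 0.43, 0.89, 1.92 and 0.41 at 72 h (0.22 ± 0.33, adjusted p = 0.81), with the times overlapping. Top2a, the topoisomerase of dividing cells, had all late arrays above the early ones but did not pass the test (0.90 ± 0.45, adjusted p = 0.319). Each of the 8 calls was lost without some single array, Cenpa for 2 arrays (adjusted p up to 0.0578) and Smc2 for 6 (up to 0.194). Without 24 h replicates 1, 3 and 4 the list had 2, 0 and 2 calls and without 72 h replicates 1, 2 and 3 it had 3, 1 and 1. It had 2 with 72 h replicates 1 and 2 averaged, 15 in the 8 arrays alone, 16 without the early groups and 24 with array weights. All 72 h arrays lay above all 24 h arrays in the mean of this list and of the erythroid list, and their relation was not tested.

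**Figure D3:**
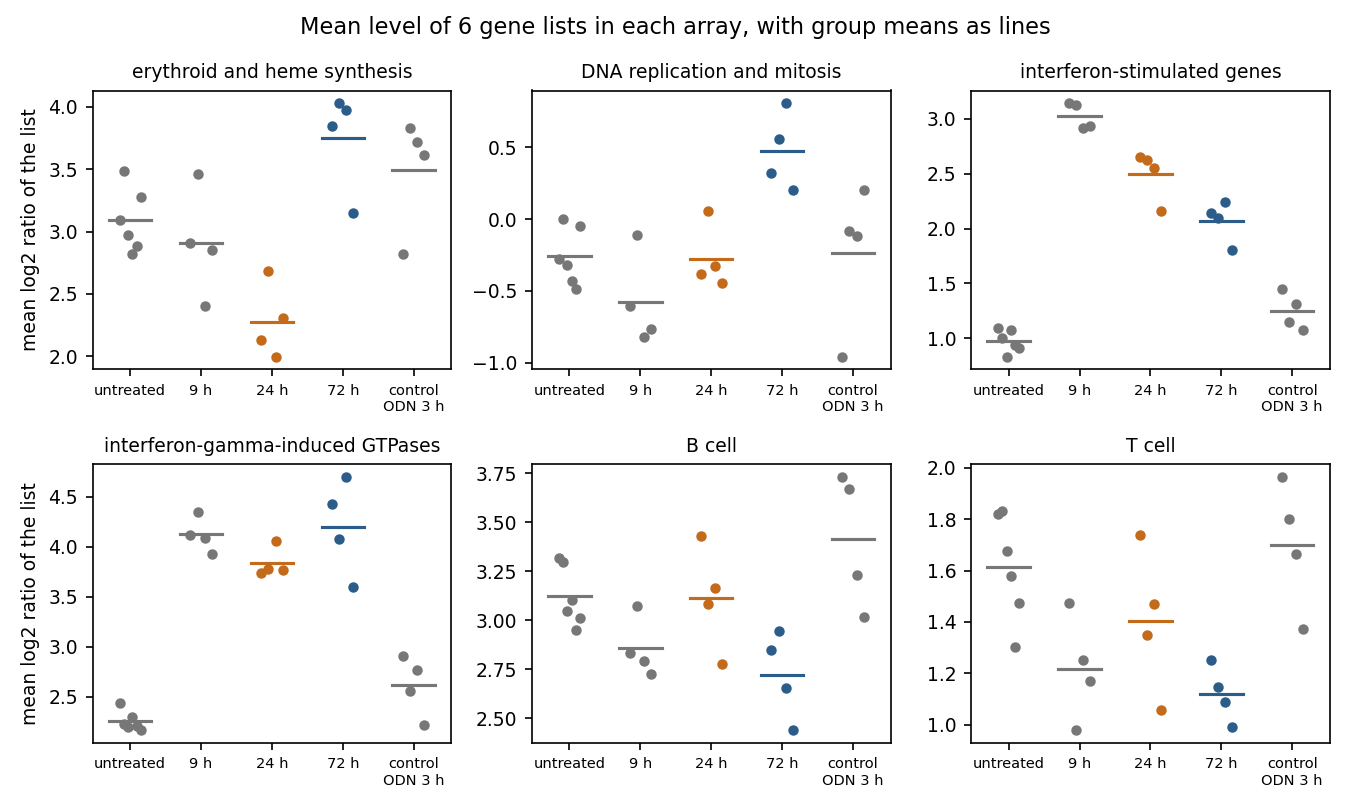
Mean centred log2 ratio of each list's measured members on every array of the untreated, 9 h, 24 h, 72 h and control ODN groups. A line marks the group mean, and each panel has its own vertical scale. Among the groups drawn the erythroid list is lowest at 24 h and the interferon-stimulated list falls from 9 h to 72 h. The GTPase list at 72 h spans 3.59 to 4.70.

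The promoters of cell cycle genes are known for CCAAT boxes and for the cell cycle homology region, whose letters are TTTGAA. Of 57 windows of the list 43 (75.4%) held CCAAT or ATTGG, against 37.4% of all windows, and 26 (45.6%) held TTTGAA or TTCAAA, against 17.9%. In the GTPase list, which had no call, 3 of 11 windows (27.3%) held CCAAT or ATTGG. The homology region stood in 5 of those 11 (45.5%), a share like that of the cell cycle list. The windows of Mki67 and Prc1, shown with the homology region in capitals, have it 98 and 5 bases before a listed start.
Mki67, chr7:135716460-135716489, minus strand: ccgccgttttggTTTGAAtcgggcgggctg
Prc1, chr7:80294434-80294463, plus strand: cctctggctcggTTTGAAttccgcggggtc

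Some interferon-stimulated genes fell between the times. Of 51 tested 14 fell and 1 rose (1.07% and 2.26% of all genes were called in those directions), and the median difference was -0.41. The list means were 2.65, 2.63, 2.55 and 2.16 at 24 h and 2.14, 2.10, 2.24 and 1.81 at 72 h, with the fourth 24 h array at the level of the late ones. Untreated arrays ranged from 0.84 to 1.09, below all 8. Of the members 38 were called above untreated at 24 h (6.83% of all genes were) and 34 at 72 h (6.43%), and 26 were called above the control ODN arrays at 72 h (4.99%). The 14 falls became 9 without 24 h replicate 3, 9 with arrays scaled to the same spread, 8 in the 8 arrays alone and 22 with array weights.

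Mx1, a gene of the dynamin-like GTPases, read 3.73, 2.82, 2.94 and 2.96 at 24 h and 1.22, 1.65, 1.08 and 1.53 at 72 h. This 3.34-fold fall (-1.74 ± 0.29, adjusted p = 0.00101) left it 0.84 above untreated (adjusted p = 0.04). Mx2, its neighbour and relative, read 2.71, 2.61, 3.22 and 2.47 and then 0.90, 1.12, 1.67 and 1.07, which is 0.12 from untreated. Slfn4, a myeloid schlafen gene, fell 4.31-fold, from 3.08, 3.47, 3.47 and 2.15 to 0.50, 0.68, 1.64 and 0.93 (adjusted p = 0.00152), the largest fall of the list. None of these 3 genes had an overlap between the times. Ifit2 and Ifit3, RNA-binding antiviral proteins, fell by 1.46 ± 0.28 and 1.53 ± 0.33 and still stood 1.36 and 1.74 above untreated at 72 h. Oasl1, a relative of the oligoadenylate synthetases, fell by 1.10 ± 0.26 with its other probe at -0.17, Bst2, the virion tether, by 0.85 ± 0.19, Lgals3bp, a secreted galectin ligand, by 1.08 ± 0.27, and Ifi27l2a, a small mitochondrial protein, by 1.23 ± 0.21 with its other probe at -0.60. Oasl1 and Lgals3bp each lost their call for 3 of the 8 arrays left out (adjusted p up to 0.119).

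Other members of the same families did not pass the test. Ifit1 read 2.75, 3.02, 2.66 and 2.33 at 24 h and 2.99, 2.94, 3.20 and 2.72 at 72 h (0.27 ± 0.27, adjusted p = 0.684), 2.30 above untreated at the later time. Isg15, the ubiquitin-like modifier, read 2.58, 2.47, 2.37 and 2.47 and then 2.84, 2.88, 3.35 and 2.47 (0.41 ± 0.29, adjusted p = 0.523). The times of both genes overlapped. Cmpk2, a nucleotide kinase, differed by 0.15 ± 0.27 and Irf7, the factor that amplifies type I interferon, by -0.36 ± 0.27, and neither passed the test. The single called rise was Ifi205, a DNA-sensing family gene, at 0.76 ± 0.21 (adjusted p = 0.0363), which was lost for 6 of 8 arrays left out (up to 0.157) and when its probes were averaged (0.886), and the other 4 probes gave -0.41 to 0.33.

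The GTPases induced by interferon gamma, the guanylate-binding proteins and immunity-related GTPases that attack vacuoles of pathogens, had no called member, with 13 of 16 differences positive and a median of 0.32. At an unadjusted p under 0.05, 2454 of all genes tested (16.1%) passed and 6 of these 16 did, by limma. List means were 3.74, 3.78, 4.06 and 3.77 at 24 h and 4.42, 4.08, 4.70 and 3.59 at 72 h, so that the fourth late array was below every 24 h array and the others above. Without that array 6 members were called higher, and 5 were when arrays were scaled to the same spread. Both times stood far above untreated spleens (2.17 to 2.44): 14 of 16 were called above untreated at each time (6.83% of all genes at 24 h and 6.43% at 72 h), and 15 above the control ODN arrays at 72 h (4.99%). Gbp2b read 4.20, 4.24, 4.61 and 5.09 at 24 h and 5.68, 5.00, 6.48 and 4.66 at 72 h (0.92 ± 0.28, adjusted p = 0.0643), against 2.08 ± 0.09 (SD, n = 6) in untreated spleens. Irgm2 differed by 1.00 ± 0.31 (adjusted p = 0.0642), Igtp by 0.65 ± 0.23 and Iigp1 by -0.09 ± 0.25, with its other probe at 0.13. Ifng itself read 2.58, 1.95, 2.05 and 1.45 at 24 h and 2.43, 2.21, 2.33 and 1.46 at 72 h, near the untreated mean of 1.92.

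The interferon-stimulated response element, searched by its core GAAANNGAA on either strand, stood in 22 of 47 windows of the interferon-stimulated list (46.8%) and in 9 of 11 GTPase windows (81.8%), against 8.56% of all windows. Among the list's genes with a window it was found in 3 of 9 genes called lower and in 17 of 29 not called lower. Shown are 2 genes that fell and 3 GTPase genes that did not pass the test, with the core in capitals.
Ifit3, chr19:34583396-34583428, plus strand: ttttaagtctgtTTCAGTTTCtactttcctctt
Ifi203, chr1:173942507-173942539, minus strand: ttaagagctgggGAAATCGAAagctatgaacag
Gbp2, chr3:142620593-142620625, plus strand: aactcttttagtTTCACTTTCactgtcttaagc
Igtp, chr11:58199510-58199542, plus strand: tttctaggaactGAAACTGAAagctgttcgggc
Irgm1, chr11:48871424-48871456, minus strand: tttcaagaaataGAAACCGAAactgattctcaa
The cores begin 121, 35, 58, 34 and 24 bases before the start. Ifi203 fell by 0.79 ± 0.21, a call that 6 single arrays ended (adjusted p up to 0.107), and Gbp2 and Irgm1 differed by 0.44 ± 0.28 and 0.41 ± 0.20, with another Irgm1 probe at -0.17.

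**Figure D4:**
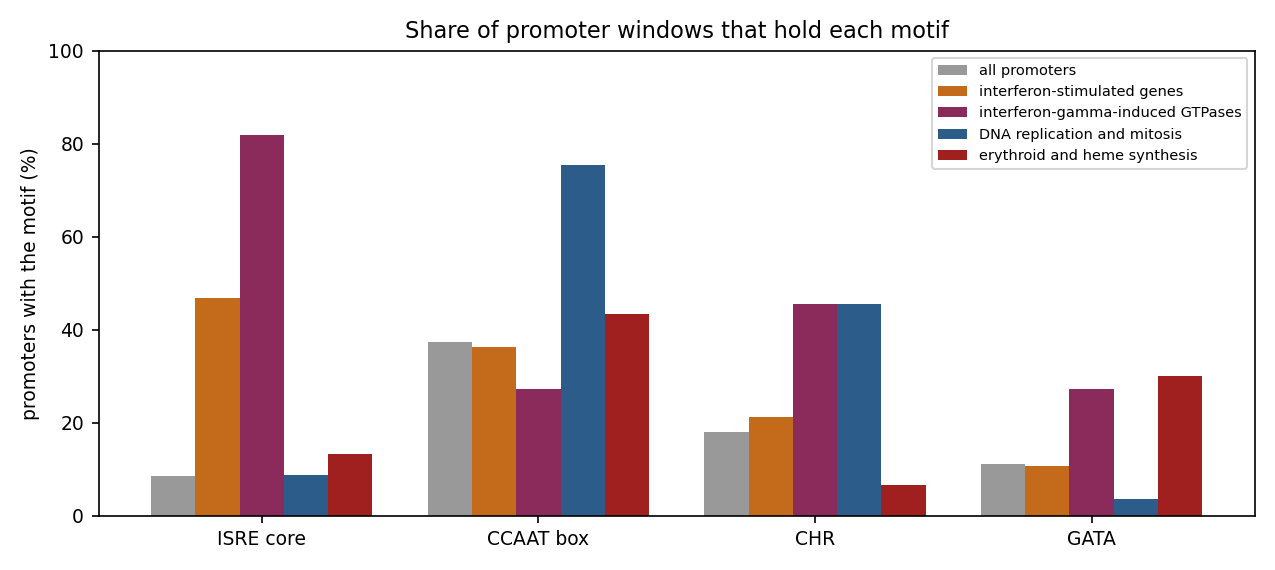
Share of promoter windows that hold each motif, for all windows and for 4 gene lists. The response element core stands in 81.8% of GTPase windows and 8.56% of all windows, and the CCAAT box in 75.4% of cell cycle windows.

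The largest single change was that of Apol10a, a gene of the apolipoprotein L family. It read 0.53, 1.61, 0.04 and 0.35 at 24 h and 5.47, 5.83, 5.96 and 4.29 at 72 h, a 27.0-fold rise with no overlap (4.75 ± 0.48, adjusted p = 6.6e-07). At 0.5 h to 9 h its group means lay between 1.32 and 1.97, near the untreated 1.06 ± 0.55 (SD, n = 6), and at 72 h it was 3.89 above the control ODN arrays (adjusted p = 3.7e-06). Ubd, a ubiquitin-like modifier inducible by cytokines, read 3.85, 2.53, 1.80 and 3.78 at 24 h and 6.64, 5.58, 5.37 and 4.20 at 72 h, a 5.49-fold rise (adjusted p = 0.00375) that also put it 2.48 above untreated. Gch1, which starts the synthesis of tetrahydrobiopterin, rose 5.34-fold from -0.04, 1.08, 0.01 and 0.32 to 2.89, 2.91, 2.95 and 2.28, after having been 1.52 below untreated at 24 h (adjusted p = 0.0069). Mgst3, a microsomal glutathione transferase, rose by 2.58 ± 0.53, Fhdc1, a formin-related protein, by 2.43 ± 0.40, Nrip3 by 2.70 ± 0.44 and Irs4, an insulin receptor substrate, by 2.78 ± 0.54, with the other Irs4 probe at 0.05. These 4 genes had been called below untreated at 24 h. All 7 genes of this group stayed called with any of the 8 arrays left out.

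**Figure D5:**
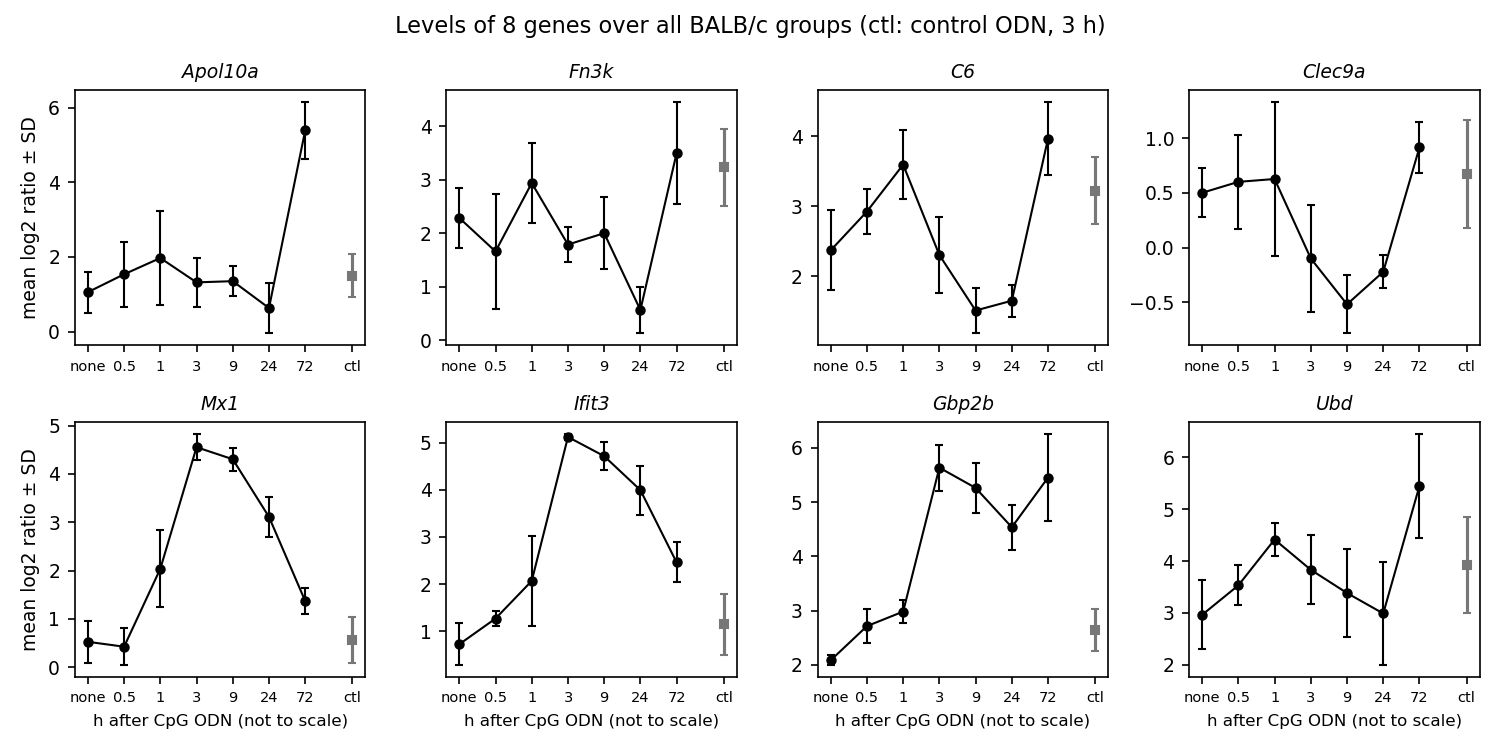
Group means with SD of 8 genes over all BALB/c groups from untreated to 72 h, on an axis not drawn to scale, with the control ODN group as a square. Apol10a stays between 0.63 and 1.97 up to 24 h and reads 5.39 at 72 h, while Mx1 and Ifit3 peak at 3 h and fall after it.

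Among macrophage genes, C6, a complement component that mouse red pulp macrophages express, read 1.42, 1.89, 1.51 and 1.79 at 24 h and 4.26, 4.33, 4.08 and 3.20 at 72 h, a 4.97-fold rise (2.31 ± 0.30, adjusted p = 4.3e-05), and was 1.60 above untreated. Trf, transferrin, rose by 1.14 ± 0.33 (adjusted p = 0.0447). C6 and Trf were the 2 of 25 red pulp macrophage genes called higher, where 2.26% of all genes were. The other 23 of 25 red pulp macrophage members tested were not called, among them Spic, the lineage's transcription factor, at -0.20 ± 0.26, and the iron exporter Slc40a1 at 0.09 ± 0.24. Cd5l, a secreted macrophage protein, was above untreated at both times, at 5.21, 5.80, 6.07 and 5.23 and at 5.33, 5.54, 6.24 and 4.24, against 2.59 ± 0.80 (SD, n = 6). Of 25 monocyte genes 2 fell (1.07% of all genes did), the surface lectin Clec4a3 by 0.87 ± 0.23 and Ms4a6d by 0.98 ± 0.24. Both were still called above untreated at 72 h, by 0.98 and 3.05. The monocyte list had 11 positive and 14 negative differences, with a median of -0.14. Msr1, a scavenger receptor, fell by 0.93 ± 0.25 on the probe that stands for it, while its 2 other probes gave 0.10 and 0.21. It was the 1 called of 7 marginal zone and metallophilic macrophage genes. Single arrays ended the calls of Trf (7 of 8), Clec4a3 and Msr1 (5 each) and Ms4a6d (4), with adjusted p up to 0.154, and that of C6 in no case.

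Of 26 dendritic cell genes 3 rose and 3 fell (2.26% and 1.07% of all genes did), and the list's median was 0.01. Against the control ODN arrays 1 was called higher at 72 h and 7 lower (4.99% and 8.26% of all genes). The 3 rises from 24 h to 72 h were genes of cross-presenting dendritic cells. The 20 members not called included other genes of that subset, so the rises do not stand for the subset as a whole. Clec9a, a receptor for dead cells, read -0.07, -0.22, -0.42 and -0.17 at 24 h and 0.60, 0.93, 1.16 and 0.98 at 72 h (1.14 ± 0.27, adjusted p = 0.0141). Xcr1, a chemokine receptor, read 1.02, 0.12, -0.13 and 0.89 and then 1.74, 1.11, 1.61 and 1.71 (1.06 ± 0.22, adjusted p = 0.00568). Naaa, a lysosomal acid amidase, had been 0.97 below untreated at 24 h (adjusted p = 0.0013) and rose by 0.88 ± 0.22 to 0.09 below it. No 24 h array reached the 72 h range in these 3 genes. The falls were the integrin Itgax, at 3.90, 3.77, 4.33 and 3.49 and then 2.38, 2.71, 2.75 and 2.62 (-1.26 ± 0.25, adjusted p = 0.00408), Fscn1, the actin bundler of mature dendritic cells (-0.92 ± 0.20), and Bst2, counted above as an interferon-stimulated gene. Itgax was 1.29 above untreated at 24 h and 0.03 above it at 72 h. Clec9a lost its call for 2 and Naaa for 3 of the 8 arrays left out (adjusted p up to 0.0765), the other called genes for none.

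Few lymphocyte markers were called between 24 h and 72 h, though most differences were negative. Of 20 B cell genes 16 had a negative difference, and of 21 T cell genes 16 did, with a T cell median of -0.37. At an unadjusted p under 0.05 in limma 4 of the B cell and 8 of the T cell genes passed (16.1% of all genes did). Against the control ODN arrays 7 of 20 B cell and 9 of 21 T cell genes were called lower at 72 h, and 0 higher (8.26% and 4.99% of all genes). Of 20 B cell genes 2 fell (1.07% of all genes did), with a list median of -0.27. Pax5, the B lineage factor, went from 2.25, 2.47, 2.08 and 1.80 to 1.49, 1.30, 1.44 and 1.10 with no overlap (-0.82 ± 0.22, adjusted p = 0.0362). Ighd, the heavy chain of immunoglobulin D, read 6.14, 5.45, 6.73 and 5.96 at 24 h and 5.14, 0.03 and 4.93 on the 3 late arrays with a value, so that its fall by 2.70 ± 0.67 rested on 1 array: the difference was -1.03 (adjusted p = 0.156) without 72 h replicate 3, and the call was also lost without 24 h replicate 1 or 3. Cd79a, a subunit of the B cell receptor, differed by 0.08 ± 0.36. Of 21 T cell genes 1 fell (1.07% of all genes did), the coreceptor Cd6, by 0.73 ± 0.20 (adjusted p = 0.0309), while 1 of its 3 probes gave 0.19. Single arrays ended the call of Pax5 in 7 of 8 cases and of Cd6 in 6 (adjusted p up to 0.1 and 0.0977). Cd3e read 0.92, 0.95, 0.56 and 0.11 and then 0.28, 0.26, -0.04 and 0.18, a difference of -0.47 ± 0.18 that did not pass the test (adjusted p = 0.166), and was 0.94 below untreated at 72 h. Of the 21 genes 6 were called below untreated at 72 h, where 4.15% of all genes were.

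Klra3, an inhibitory natural killer receptor, was the only 1 of 20 natural killer genes called (0.76 ± 0.18), where 2.26% of all genes were called higher. Of the 20, 9 were called above untreated at 72 h and 4 at 24 h, where 6.43% and 6.83% of all genes were. Against the control ODN arrays 8 were called higher at 72 h and 0 lower (4.99% and 8.26% of all genes). Gzmb, the granule protease granzyme B, read 4.44, 5.51, 4.83 and 4.47 at 24 h and 4.79, 4.89, 5.12 and 4.68 at 72 h, both above the untreated 2.27 ± 0.58 (SD, n = 6). Mcpt8, a basophil protease, rose by 1.14 ± 0.27, the 1 called of 10 basophil and mast cell genes. Ell2, an elongation factor of antibody secretion, rose by 0.93 ± 0.22. It was the 1 called of 13 plasma cell genes, of which 8 differences were positive and 5 negative, with a median of 0.14. The 3 calls of Klra3, Mcpt8 and Ell2 were lost for 3 or 4 arrays left out (adjusted p up to 0.0743). No neutrophil gene was called in either list, where 3 of 16 and 7 of 21 passed at an unadjusted p under 0.05 in limma (16.1% of all genes did). Genes of early granules had a median of 0.50 (14 of 16 positive) and those of mature neutrophils of -0.45 (18 of 21 negative). Differences ran from -0.999 to 0.989 in the early list and from -1.177 to 1.284 in the mature list. Without overlap of the times, 1 early and 3 mature members were lower at 72 h and 0 of either list higher. Whether the lists differ was not tested. S100a8, a calprotectin subunit, was at -0.65 ± 0.30 and Mpo, myeloperoxidase, at 0.55 ± 0.43.

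Among secreted signals, Cxcl11, a chemokine induced by interferon, read 3.16, 2.79, 1.75 and 1.73 at 24 h and 0.87, 0.12 and 1.11 on 3 arrays at 72 h (-1.66 ± 0.44, adjusted p = 0.0309). Its relatives Cxcl9 and Cxcl10, ligands of the same receptor, did not pass the test (0.65 ± 0.46, with another Cxcl9 probe at 0.02, and -0.04 ± 0.31) and were 2.59 and 1.69 above untreated at 72 h. Il12b, a subunit of interleukin 12, read 2.01, 1.39 and 1.11 on 3 arrays at 24 h and 0.31 and 0.13 on 2 at 72 h (-1.29 ± 0.26, adjusted p = 0.00499). It was the 1 called member of 31 inflammatory cytokine and feedback genes (1.07% of all genes were called lower). Il6 and Tnf differed by -1.02 ± 0.37 and -0.26 ± 0.39, which did not pass the test. Cx3cl1, fractalkine, fell by 1.09 ± 0.27, and Ccl24, an eosinophil attractant, and Cxcl5, a neutrophil attractant, rose by 0.91 ± 0.21 and 0.89 ± 0.25. Of 30 chemokine genes 2 were called higher and 2 lower (2.26% and 1.07% of all genes were). The acute phase gene Saa3 fell by 1.08 ± 0.29 and the copper carrier Cp by 0.75 ± 0.19. Of 18 acute phase and antimicrobial genes 2 were called lower and 0 higher. Of 36 genes of folding and secretion in the endoplasmic reticulum 2 fell (1.07% of all genes did), the disulfide isomerases Pdia6 by 0.87 ± 0.24 and Pdia3 by 0.60 ± 0.16. Of 32 matrix genes 2 fell (1.07% of all genes did), Postn (1.17 ± 0.20, its other probe at -0.29) and Mmp3 (1.09 ± 0.27). Of the genes called in this paragraph, Postn stayed called with any array left out, and the others lost their call for 1 (Il12b) to 7 (Cxcl5) arrays, with adjusted p up to 0.202 (Saa3). Pdia3 was also the 1 called gene of 18 for MHC class I presentation. Of 19 genes of iron export, uptake and storage Tfrc, Trf and Blvrb rose and Cp fell. Over all genes 2.26% were called higher and 1.07% lower.

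Further large falls came from genes outside these lists. Uchl3, a ubiquitin hydrolase, read 1.35, 2.20, 1.73 and 1.24 at 24 h and -0.74, -0.57, 0.34 and 0.24 at 72 h (-1.81 ± 0.24, adjusted p = 4.3e-05), and its mean was -0.31 in untreated spleens and 2.55 at 9 h. Afp, alpha-fetoprotein, read 1.19, 1.40, 0.98 and 0.86 at 24 h and -0.64, -0.69, -0.05 and -0.88 at 72 h. Its 24 h mean of 1.11 was the highest of all groups, whose other means ran from -1.65 to -0.57. Sct, secretin, fell by 1.58 ± 0.26, the growth factor Igf2 by 1.47 ± 0.34, Folh1, a glutamate carboxypeptidase, by 1.49 ± 0.37 on 3 late arrays and the ubiquitin ligase Rnf144a by 1.53 ± 0.35 on 3 late arrays. Trim30b, of an interferon-inducible family, fell by 1.58 ± 0.29, while 1 of its 3 probes gave 0.18. Single arrays ended the calls of Folh1 (4), Rnf144a (2) and Igf2 (1), with adjusted p up to 0.127.

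Other lists without any call were MHC class II (12 genes), complement (15, a list that did not hold C6), cytotoxic effectors (13), the respiratory chain (39), cholesterol synthesis (20), heat shock chaperones (16), germinal centre B cells (8), platelets (19), eosinophils (8), stroma (24), endothelium (21), pancreas (22) and adipose tissue (12). At an unadjusted p under 0.05, 24 of their 226 distinct members passed in limma, a lower share than the 16.1% of all genes. Markers of the pancreas, which lies against the spleen, varied between arrays, with list means of 2.13, 2.72, 4.65 and 0.40 at 24 h, 0.15, 1.49, 3.59 and 3.48 at 72 h and 0.43 to 5.46 in untreated spleens. The regenerating islet-derived lectins, antimicrobial proteins made in pancreas and gut, had a median difference of -2.95 over 5 genes with none called, of which 3 passed at an unadjusted p under 0.05 in limma (16.1% of all genes did). Their list means of 3.60, 3.63, 5.77 and 0.23 at 24 h and -0.03, 1.03, 2.53 and 2.53 at 72 h were lowest in the arrays with the lowest pancreas signal of each time, whose part in the difference was not tested.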

How the data were processed

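RNA of whole spleens was measured on two-colour spotted arrays. The deposited values are the authors' log2 ratios of Cy5 (spleen) over Cy3 (reference), per the labels. According to the series description they are background-corrected and lowess-normalised, with flagged spots and spots dim in both channels (signal below 100) left out. A direction check against scanner signals was not made, since scanner files were not used here. Among the 36607 probes 30750 held values, and 26926 had 1 gene symbol, 203 several and 9478 none. Symbols were updated through RefSeq GRCm38.p6.

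Each array was centred on its median. Of several probes the one with most values stood for a gene, and genes with values on under 70% of the 34 BALB/c arrays were left out. A linear model with a mean per group over the 34 arrays was fitted with limma 3.58.1 in R 4.3.3 (lmFit, eBayes), with the contrast of 72 h minus 24 h and Benjamini-Hochberg adjustment over 15264 genes. Errors after ± are the fit's standard errors unless marked SD. Fold changes are 2 to the power of the log2 difference. The procedure was tested on simulated data.

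The named genes were the 15 largest called rises and falls without overlap between the times and up to 4 members of each of 37 lists with the smallest p. Car2, Bpgm, Epb42, Ank1, Icam4, Rhd, Lmo2, Top2a, Mcm5 and other members outside that rule were chosen after their values were seen. The arrays, lists and tests were chosen with earlier results of these data known. Replicate numbers were checked for pairing. Same-numbered arrays of both times had deviations from their group means that correlated at 0.276, 0.082, 0.41 and 0.32 over 14176 genes. Different-numbered arrays correlated at -0.339 to 0.27. Since 1 of the 4 same-numbered values fell under 0.1, the main fit had no block. The check does not exclude a pairing, and a fit with a replicate block is given below. The number of arrays limits the precision. Promoter windows and their coordinates are RefSeq's (GRCm38.p6), and motifs were searched on both strands.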

Additional observations from a re-analysis of the deposited data

Results flagged for a closer look

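Dixon's test for a lone extreme array was run on 297 groups of 4 arrays, those of the named genes and list means with all 4 values, and 32 passed its critical value. Chance flags about 1 in 20 groups, and genes of one list share arrays, so that these are not independent. No explanation was tested.

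The fourth 72 h array was the low extreme in 15 of them. It read 4.07 for Cxcl9 (the others 6.52 to 6.82), 0.93 for Ell2 (from 1.49), 1.54 for Fhdc1 (from 2.19), 2.07 for Fn3k (from 3.92), 2.28 for Gch1 (from 2.89), 2.16 for Irgm2 (from 3.85), 4.86 for Klf1 (from 6.69), 0.93 for Nusap1 (from 1.4), 2.65 for Slc25a37 (from 3.44) and 4.89 for Spic (from 5.72). Its list means were 1.35 for iron genes (from 1.65), 1.92 for mature neutrophils (from 2.84), 3.24 for red pulp macrophages (from 3.98), 0.92 for basophils and mast cells (from 1.47) and 1.41 for endothelium (from 2.05).

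The second 24 h array was the high extreme for the heme and red cell genes Alad (2.24, the others up to 0.81), Blvrb (2.97, up to 1.61), Car2 (7.99, up to 6.9), Cpox (0.84, up to 0.15) and Ppox (1.26, up to 0.11), and for the mitotic genes Cenpa (-0.43, up to -1.29) and Prc1 (-0.35, up to -1.24). It was the low extreme for Msr1 (1.41, from 2.05). Other lone values were the first 24 h array for Mx1 (3.73, up to 2.96) and the basophil and mast cell mean (1.57, up to 1.05), the third for the GTPase mean (4.06, up to 3.78), and the fourth for Mki67 (0.59, up to -0.41), the acute phase mean (0.83, from 1.25) and the plasma cell mean (-0.2, from 0.19). At 72 h they were the first array for Ifi27l2a (1.48, up to 0.61) and the third for Kif22 (1.36, up to 0.41) and Sct (1.48, up to 0.1).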

How the results depend on the processing

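The count of 508 calls (345 higher, 163 lower) was 260 (216, 44) in the 8 arrays alone, 1866 (956, 910) with array weights, 829 (575, 254) over all 30541 probes, 278 (227, 51) at 2-fold or more and, chosen after seeing the data, 242 (174, 68) with 72 h replicates 1 and 2 averaged. With 1 array left out it ran from 201 to 699 (149 to 468 higher, 52 to 232 lower), and without 24 h replicate 4 only 49% were higher, against 67.9%. Array weights gave 51.2% higher and the 8 arrays alone 83.1%. Centring, scaling, probe averaging, complete genes, robust moderation, the number run as a random block and a fit of the later and control groups, added after seeing the data, kept it within 1.5 times. Of 84 named genes called, 38 stayed called with each array left out. With the averaged replicates 32 were not called (adjusted p 0.0526 to 0.163): Alad, Ank1, Birc5, Cd6, Clec4a3, Cp, Cpox, Cx3cl1, Cxcl11, Cxcl5, Ell2, Epor, Folh1, Icam4, Ifi203, Ifi205, Kif22, Klf1, Klra3, Mki67, Mmp3, Ms4a6d, Msr1, Nusap1, Oasl1, Pax5, Pdia3, Pdia6, Prc1, Saa3, Smc2 and Trf.

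The replicate block gave 499 calls, 451 of them shared with the fit without it. Of the 115 named genes Ank1, Birc5, Cxcl5, Ighd, Mki67, Nusap1 and Smc2 were not called under it (adjusted p 0.0503 to 0.0819), Gbp2b and Irgm2 were (0.0484 and 0.0382), and no other call changed. Not every array correlated best with its own number, so the numbers are not taken to pair the arrays.

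No called named gene changed sign. Of those not called, with arrays scaled to the same spread Alas2 became 0.38, Cd5l 0.20, Cxcl10 0.23, Hbb-b1 0.46, Iigp1 0.46 and Spic 0.28. Array weights gave Alas2 0.38, probe means Iigp1 0.023 and averaged 72 h replicates Cd79a -0.11. With 1 array left out the ranges across 0 were -0.30 to 0.20 for Alas2, -0.54 to 0.13 for Cd5l, -0.16 to 0.32 for Cd79a, -0.042 to 0.37 for Cmpk2, -0.34 to 0.28 for Cxcl10, -0.067 to 0.29 for Gzmb, -0.20 to 0.12 for Hba-a1, -0.46 to 0.043 for Hbb-b1, -0.086 to 0.32 for Ifng, -0.19 to 0.025 for Iigp1, -0.12 to 0.39 for Mcm5, -0.03 to 0.31 for Slc40a1 and -0.32 to 0.019 for Spic. The causes were not tested. Signal over background could not be read from the ratios, so dim spots limit single genes to an unknown extent.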
